A study of Homo sapiens with 8 samples.

Results

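The HIVEP genes code for very large zinc finger proteins, and in zinc-induced U937-PR9 cells they carried 22 of the 15412 PML::RARA peaks. HIVEP3 held 16 of them, HIVEP1 3 and HIVEP2 3. The peaks were chosen from the list itself, as those that the authors labelled with a HIVEP symbol, those without a gene label whose centre lay within 50 kb of such a peak, and all peaks on chromosome 1 from 41960000 to 42510000, which holds HIVEP3 (hg19). By this choice 4 peaks carried a HIVEP label and 18 carried none. Since position and label selected them, the numbers and positions below are a description, with no test. The peaks of HIVEP1 and HIVEP2 were few and mostly lay at the 5′ end of the gene. In contrast, the unlabelled HIVEP3 peaks mostly lay in introns 1 and 2 of HIVEP3, far from its labelled peak. This contrast is set in part by the selection, which took the whole HIVEP3 locus but kept unlabelled HIVEP1 and HIVEP2 peaks only near a labelled one. Counted inside each whole gene, whatever the selection, 15 apexes lay in HIVEP3, 3 in HIVEP2 and 2 in HIVEP1. HIVEP3 is the longest of these genes, and per 100 kb the numbers were 2.83, 1.46 and 1.28, a smaller contrast.

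U937-PR9 cells are monocytic and hold a transgene for PML::RARA behind a zinc-inducible promoter, and the values come from induced cells, which received 100 μM ZnSO4 for 5 h. Uninduced cells of the same line received water for 5 h. In Cut&Run, an antibody guides a nuclease to its target in isolated nuclei and the released DNA is sequenced. The study made 8 libraries, 2 for each of the antibodies against PML::RARA and RARA in each condition, and the list analysed here holds the anti-PML::RARA peaks of induced cells that were reproducible across 2 replicates. It gives 1 set of values for both replicates and no control peaks, so the spread between replicates and the depth are unknown, and effects of zinc and of PML::RARA cannot be told apart.

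HIVEP proteins were named for binding to the enhancer of HIV. They carry widely spaced pairs of zinc fingers that recognise the kB site, the DNA element of the NF-kB factors, and they are relatives of the fly protein Schnurri, which acts with SMAD proteins in BMP signalling. HIVEP3, also known as KRC, has been described as a partner of TRAF2, JUN and RUNX2 and is known for its role in bone formation. HIVEP2 is known from T cell selection and from brain development. PML::RARA joins the PML protein to the retinoic acid receptor alpha, which binds repeats of the half-site AGGTCA.

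To show what the peaks are made of, the 300 bases around the apex, the midpoint of the interval of largest signal, are printed for the 4 labelled peaks and for the HIVEP3 peaks of height 51 and 44 (GRCh37, plus strand, 5′ to 3′). The latter was added to this set after its value was seen. Capitals mark the motifs searched here, which are the half-site AGGTCA, the ETS core GGAAGT, the AP-1 site TGANTCA, the RUNX core TGTGGT, the C/EBP site TTGCNNAA and the kB site, each on both strands.
HIVEP3, labelled peak, chr1:42501550-42501849: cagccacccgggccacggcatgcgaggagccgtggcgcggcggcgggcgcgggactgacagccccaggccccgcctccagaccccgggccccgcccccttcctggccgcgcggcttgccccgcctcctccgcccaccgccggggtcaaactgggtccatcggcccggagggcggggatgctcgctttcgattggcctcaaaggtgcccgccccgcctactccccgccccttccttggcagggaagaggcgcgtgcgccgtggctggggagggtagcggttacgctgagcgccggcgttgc
HIVEP3, peak of height 51, chr1:42204777-42205076: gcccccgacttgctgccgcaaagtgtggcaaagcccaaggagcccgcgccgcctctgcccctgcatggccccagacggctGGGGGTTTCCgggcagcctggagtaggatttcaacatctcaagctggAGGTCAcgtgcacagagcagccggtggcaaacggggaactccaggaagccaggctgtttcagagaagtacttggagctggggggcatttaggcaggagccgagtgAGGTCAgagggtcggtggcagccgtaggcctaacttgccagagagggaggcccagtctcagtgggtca
HIVEP3, peak of height 44, chr1:42268613-42268912: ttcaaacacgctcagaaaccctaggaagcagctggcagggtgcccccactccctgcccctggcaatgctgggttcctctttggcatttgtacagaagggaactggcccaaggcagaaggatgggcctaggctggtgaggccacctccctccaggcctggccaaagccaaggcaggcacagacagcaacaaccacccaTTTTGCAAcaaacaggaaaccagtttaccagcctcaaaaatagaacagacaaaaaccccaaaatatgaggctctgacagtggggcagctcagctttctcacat
HIVEP1, labelled peak, chr6:12011498-12011797: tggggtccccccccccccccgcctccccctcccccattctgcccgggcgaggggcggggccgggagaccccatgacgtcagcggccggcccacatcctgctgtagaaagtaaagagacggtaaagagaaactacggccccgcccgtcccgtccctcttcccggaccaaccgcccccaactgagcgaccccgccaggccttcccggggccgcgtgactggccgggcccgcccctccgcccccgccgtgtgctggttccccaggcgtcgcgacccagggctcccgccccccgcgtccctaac
HIVEP2, lower labelled peak, chr6:143265588-143265887: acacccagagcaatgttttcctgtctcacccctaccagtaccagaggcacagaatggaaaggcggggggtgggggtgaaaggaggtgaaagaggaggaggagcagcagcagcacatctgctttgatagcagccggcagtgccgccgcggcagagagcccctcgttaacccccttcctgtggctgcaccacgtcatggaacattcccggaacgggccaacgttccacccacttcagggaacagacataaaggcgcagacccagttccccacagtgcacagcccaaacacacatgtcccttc
HIVEP2, upper labelled peak, chr6:143267385-143267684: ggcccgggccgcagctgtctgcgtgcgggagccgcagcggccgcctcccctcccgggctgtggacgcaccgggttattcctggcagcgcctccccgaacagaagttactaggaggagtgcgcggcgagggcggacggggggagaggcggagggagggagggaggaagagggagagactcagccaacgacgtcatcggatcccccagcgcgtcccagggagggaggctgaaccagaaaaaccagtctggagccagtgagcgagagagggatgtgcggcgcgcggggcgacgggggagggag

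HIVEP3 (ENSG00000127124) lies on the minus strand of chromosome 1 from 41972036 to 42501596 and, with 529.6 kb, is longer than 98.6% of the 20098 protein-coding genes. Its labelled peak, from 42500777 to 42502160, spanned the 5′ end of HIVEP3, with the apex 103 bp upstream of the start site of a transcript without a defined coding sequence. The height of this peak, its largest signal, was 29, above 63.2% of all peaks, and its width was 1384 bp, above 79.4%. From its lower edge, 231.2 kb or 43.7% of the gene held no peak. This empty stretch includes the start site of the canonical transcript, HIVEP3-201, at 42384593, from which the nearest apex was 115.8 kb away. Of the 7 start sites of HIVEP3 in GENCODE, a peak covered 1. The RefSeq promoter windows of HIVEP3, matched base for base to GRCh37, gave the same picture, since a peak overlapped the window of the start at 42501605 and none overlapped that at 42384593.

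The other 15 HIVEP3 peaks carried no label and lay in a stretch of 230.1 kb, from 42039499 to 42269616, which is 43.5% of the gene. The peaks covered 5.28% of this stretch, and the median gap between neighbours was 9.7 kb. In the canonical transcript, 9 apexes lay in intron 1, 4 in intron 2, 1 in exon 4 and 1 in intron 5. Thus 13 of the 15 lay upstream of the coding sequence, which spans 41976125 to 42050468, and 2 within its span. No other annotated gene overlapped an apex in this stretch. Intron 1, of 217.4 kb, held 4.14 apexes per 100 kb, and intron 2, of 72.0 kb, held 5.56, while intron 3, of 43.4 kb, held 0.

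**Figure D1:**
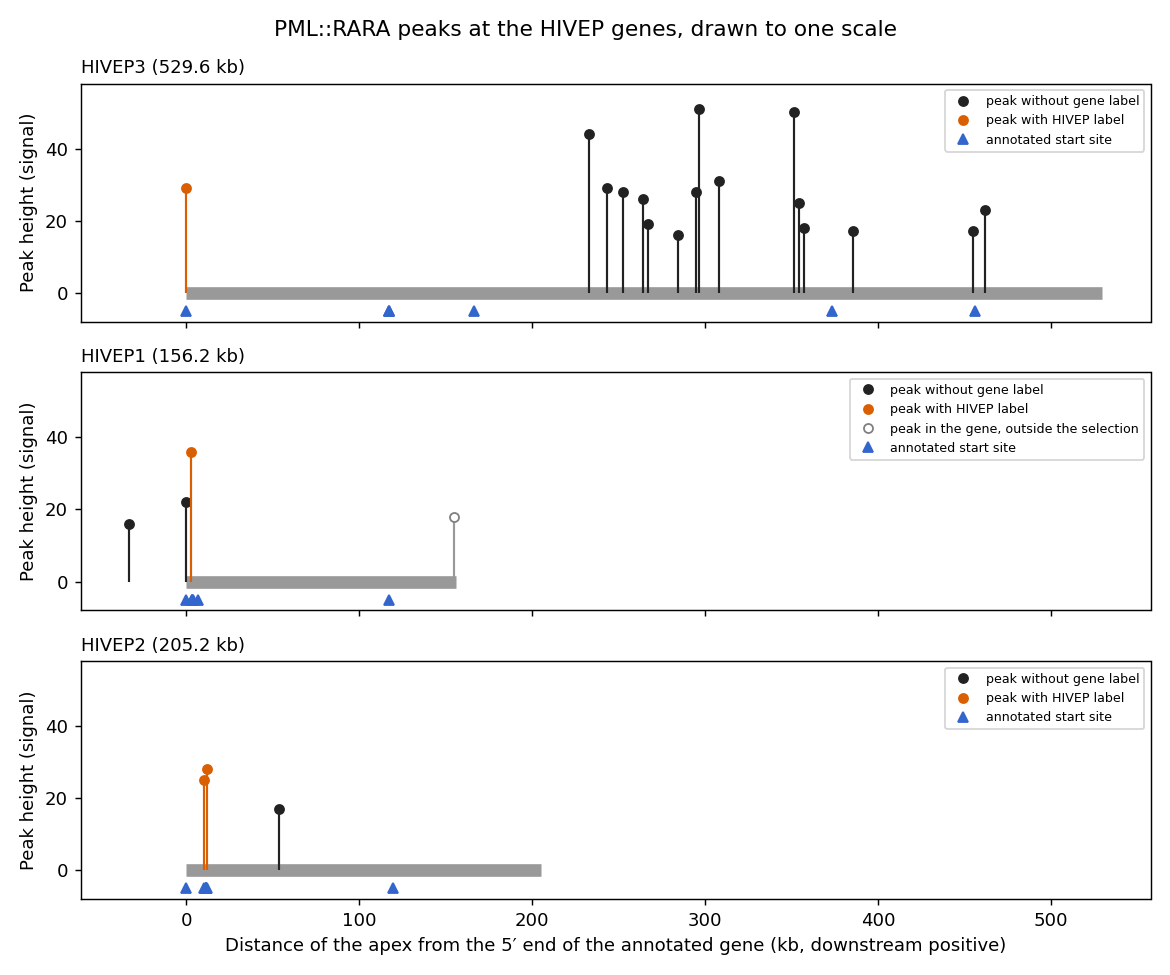
Peak height (largest signal, vertical axis) at each apex against its distance from the 5′ end of the annotated gene in kb (horizontal axis), for HIVEP3, HIVEP1 and HIVEP2 on one scale. Grey bars are the genes, triangles annotated start sites, orange points labelled peaks, black points unlabelled peaks and the open point a HIVEP1 peak outside the selection. The 15 unlabelled HIVEP3 peaks begin 232.8 kb inside the gene, while the HIVEP1 and HIVEP2 labelled peaks lie near the 5′ end.

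Read from the 5′ end, the first group of HIVEP3 peaks was in intron 1. The peak from 42268459 to 42269616 had a height of 44, above 91.0% of all peaks. It was followed by peaks of height 29 (42257828 to 42258481) and 28 (42248488 to 42249521). All of these were at or above the median of the list, which was 25. Next came a narrow peak of 264 bp and height 26 (42237108 to 42237371). Its neighbour, from 42234212 to 42234741, had a height of 19. The lowest HIVEP3 peak, from 42216873 to 42217323, had a height of 16, above only 0.13% of the list.

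The highest HIVEP3 peak followed, still in intron 1. It spanned 42204148 to 42205685, and its height of 51 exceeded that of 96.0% of all peaks and its width of 1538 bp that of 84.6%. A peak of height 28 lay 526 bp beside it (42206212 to 42207371). The last peak of intron 1, from 42192411 to 42193528, had a height of 31. The strongest HIVEP3 signal was therefore not at the labelled 5′ end, and 4 of the 15 unlabelled peaks were higher than the labelled peak, while 1 had the same height.

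In intron 2, the second highest peak, from 42149375 to 42150326, had a height of 50, above 95.4% of all peaks. Its signal per base, the total signal divided by the width, was 20.65, above 98.9% of the list, against 14.42 in the highest peak. Beside it lay peaks of height 25 (42147014 to 42147622) and 18 (42144148 to 42144727). The fourth apex of intron 2 belonged to a low peak of height 17 (42115686 to 42116138), with a signal per base of 4.03 that exceeded only 0.0843% of the list. The 2 peaks nearest the 3′ end were also modest. The peak from 42046361 to 42047162, of height 17, had its apex in the coding sequence of exon 4, an exon of 5582 bp with 70.1% of the coding bases of HIVEP3. In intron 5, a peak of height 23 lay from 42039499 to 42040344, and the last 67.5 kb of the gene held none.

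The heights of the HIVEP3 peaks thus ran from 16 to 51 with a median of 27, against 25 for the list as a whole. Of the 15 unlabelled peaks, 3 were over 40, 7 lay between 23 and 31, and 5 were below 20. Their median height was 26 and their median width 802 bp, against 23 and 634 bp for all 8243 unlabelled peaks. In the plot of height against width, the HIVEP3 peaks covered most of the range of ordinary peaks, and none was among the widest.

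**Figure D2:**
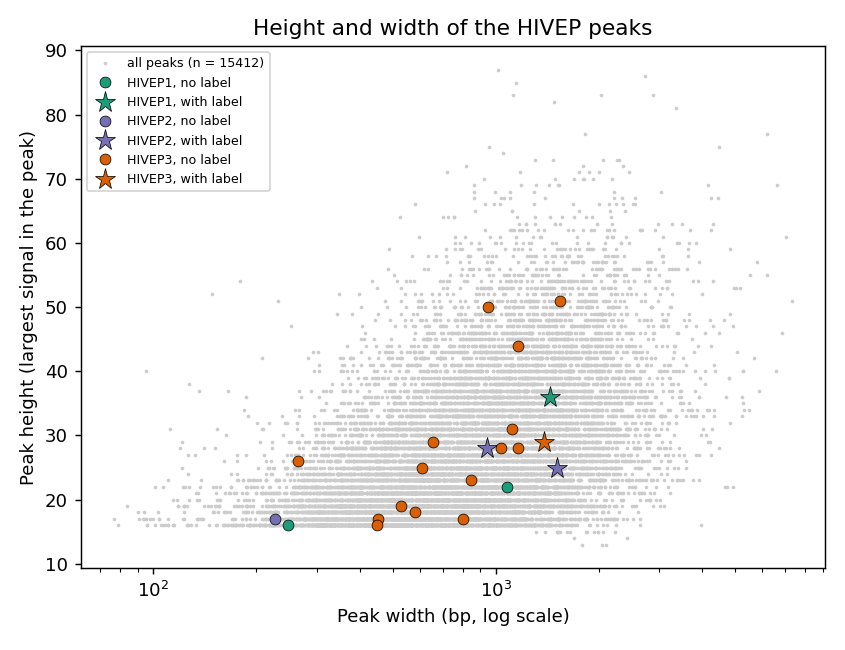
Peak height (largest signal, vertical axis) against peak width in bp (horizontal log axis) for all 15412 peaks in grey and the 22 HIVEP peaks in colour, with stars for labelled peaks. Of the HIVEP peaks, 3 exceed at least 90% of the list in height, all of them unlabelled HIVEP3 peaks (51, 50 and 44).

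HIVEP1 (ENSG00000095951, plus strand of chromosome 6 from 12008995 to 12165232, 156.2 kb) had a different arrangement. Its labelled peak, from 12010885 to 12012326, had a height of 36, above 80.0% of all peaks, and was the highest peak of HIVEP1. The peak ended 219 bp before the start site of the canonical transcript HIVEP1-201, and its apex lay 586 bp upstream of the nearest start site. A peak without a label lay beside it, from 12008601 to 12009676, with a height of 22. Its apex was 36 bp upstream of the most upstream start of the gene in GENCODE, and inside the long noncoding RNA gene ENSG00000229896. The apexes of these neighbours were 2688 bp apart. The peak farthest upstream, from 11975857 to 11976103, lay 33.0 kb upstream of the gene, and was low (16) and narrow (247 bp).

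One further peak lay in HIVEP1 but outside the selection, 151.3 kb from the labelled peak. It spanned 12163404 to 12163930, with a height of 18, and its apex was in the coding sequence of exon 9, the last exon of the canonical transcript. With it, 2 apexes lay inside HIVEP1, or 1.28 per 100 kb. The farthest HIVEP1 peak within the selection was 34.9 kb from the labelled peak. The nearest peak beyond the selection on the other side was 243.1 kb from the outermost selected peak and 278.3 kb from the labelled one.

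HIVEP2 (ENSG00000010818, minus strand of chromosome 6 from 143072606 to 143277835, 205.2 kb) had 2 labelled peaks with only 106 bp between them. The one from 143265260 to 143266203 reached 28, with the apex 3 bp from a start site. The one from 143266310 to 143267823 reached 25, with the apex 32 bp from another. This second peak was the widest at HIVEP2, with 1514 bp, above 83.8% of the list. Together they covered 6 of the 10 start sites of HIVEP2, and the apexes were 1797 bp apart. The canonical start at 143266313 lay 3 bases inside the edge of the second peak. Both HIVEP2 promoter windows of RefSeq, matched to GRCh37, were overlapped by this peak. HIVEP1 is named only, as it had no window there.

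The remaining HIVEP2 peak was a low and narrow one in intron 1, from 143223869 to 143224095, and reached 17 over 227 bp. It lay 41.3 kb from the nearer labelled peak. The next peaks outside the selection were 199.7 kb below it, at a height of 25 with no label, and 503.4 kb above the labelled peaks, at the ADAT2 label with a height of 26. No peak of HIVEP2 reached the heights of the strongest HIVEP3 peaks, and the HIVEP2 median was 25. Beyond the outermost HIVEP3 peaks, the nearest peaks were 212.3 kb below, at FOXO6 with a height of 23, and 621.5 kb above, at the PPIH label with a height of 20.

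The selected peaks of HIVEP3 summed to more signal than those of the other genes, but the selection was wider there, taking a whole window at HIVEP3 and only the surroundings of labelled peaks at HIVEP1 and HIVEP2, where it left out the HIVEP1 peak in exon 9. Summed over its 16 peaks, the total signal was 133415 over 13533 bp, or 9.86 per base. The sums were 26226 over 2765 bp at HIVEP1, or 9.48 per base, and 26492 over 2685 bp at HIVEP2, or 9.87 per base. The mean signal under the selected peaks thus differed little between the genes. These are sums over regions called by the peak caller, with no value for the sequence between them.

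All of the HIVEP genes carried a promoter label, which 30.0% of protein-coding genes did. HIVEP2 was among the 2.57% with 2 or more labelled peaks. The label was part of the selection, so these label shares describe the HIVEP genes and test nothing. Inside the gene, HIVEP3 held 15 apexes, HIVEP2 3 and HIVEP1 2, where 29.3% of protein-coding genes held at least 1. Fewer apexes than in HIVEP2 were held by 96.2% of these genes, and fewer than in HIVEP1 by 91.1%. HIVEP2 is longer than 92.8% of them and HIVEP1 than 89.6%. No gene held more apexes than HIVEP3, and 0.0149% held at least as many. These were HIVEP3 itself, CDH23 (a cadherin gene) and CHST11 (a chondroitin sulfotransferase gene), with 15 each, the latter pair named after their values were seen. A longer gene has more room for peaks, so HIVEP3 was set beside the 824 protein-coding genes of 300 kb or more, of which 530 held no apex and 0.364% held at least as many. Per 100 kb, HIVEP3 held 2.83 apexes, a density that 4 of these long genes, or 0.485%, reached. Both shares of the long genes include HIVEP3 itself, so other long genes were at least as dense. HIVEP3 was chosen for its peaks in this same list, so its rank and these shares describe it and test nothing.

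**Figure D3:**
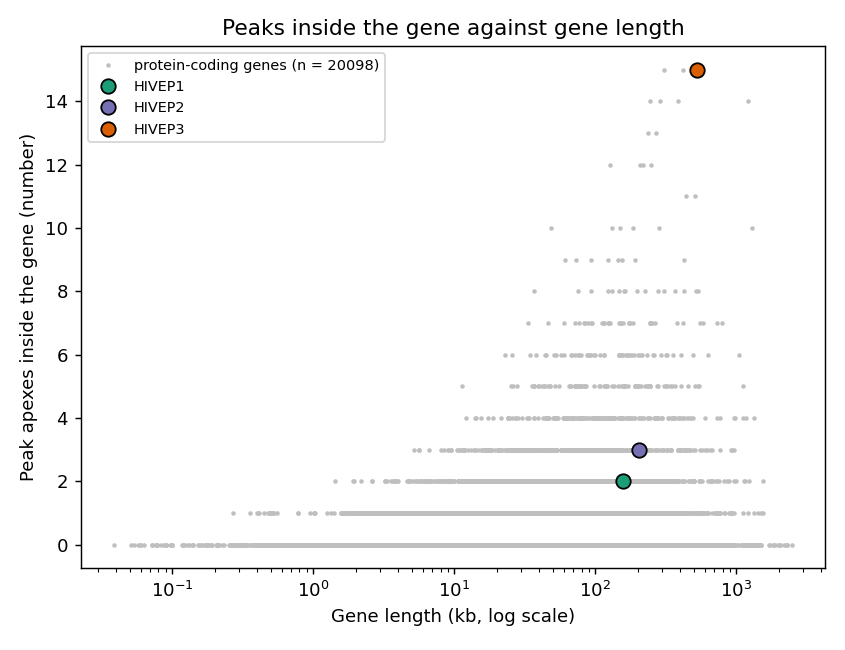
Number of peak apexes inside each protein-coding gene (vertical axis) against gene length in kb (horizontal log axis), with the HIVEP genes in colour. HIVEP3, with 15 apexes, sits at the top of the plot, while HIVEP2, with 3, and HIVEP1, with 2, lie far below it.

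Of the 10 genes closest to HIVEP3 in length, from 525.3 to 538.5 kb, the median held 1 apex. PRKCE, a protein kinase C gene, held the most, with 8, and CELF2, an RNA-binding protein gene, held 5. PLXNA4, CREB5, ARHGAP24, SBF2 and EGLN3 held 1 each, and CHRM3, CA10 and SEMA3A held 0. Every one of them therefore held fewer apexes than HIVEP3 at nearly the same length. The long genes closest to HIVEP3 in density were TNS3, with 2.60 apexes per 100 kb, MAML3, a Mastermind coactivator gene of the Notch pathway, with 2.51, GSE1 and XYLT1, with 2.17 each, and MSI2, with 2.10. All of these were less dense than HIVEP3. Likeness was the difference in apexes per 100 kb over the whole list, which is 1 set of peaks.

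The density within the gene was uneven. The stretch with the 15 unlabelled HIVEP3 peaks held 6.52 of them per 100 kb. When a window of the same length was opened at each of the 8243 unlabelled peaks, the median window held 3 unlabelled peaks and 0.643% held 15 or more. These windows overlap, and the stretch was drawn around the HIVEP3 peaks after they were seen, so this share only describes how dense the stretch was.

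The unlabelled and labelled HIVEP peaks differed in base composition. In the 300 bases around the apex, the 4 labelled peaks had 59.0 to 76.3% G and C and 11 to 37 CpG dinucleotides. The 18 unlabelled ones had 45.0 to 63.3% and 1 to 14. The labelled HIVEP2 peak nearest the 3′ end, with 59.0% and 11, fell inside the range of the unlabelled ones, and the other 3 did not. Across the list, the median CpG number was 25 in labelled and 5 in unlabelled peaks, and it was also 5 in the unlabelled HIVEP peaks.

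None of the motifs searched occurred in the 4 labelled windows printed above, whereas 16 of the 18 unlabelled HIVEP peaks held at least 1. Over the list, 53.7% of labelled and 82.7% of unlabelled peaks held at least 1, and in windows 2 kb below the apex on the plus-strand coordinate it was 60.1% of all peaks. In those shifted windows 77.8% of the unlabelled HIVEP peaks held at least 1, so short motifs of this kind were common around these genes too. With so few peaks, the shares below have wide Wilson 95% intervals, which cover the counting of peaks only, and neighbouring peaks are not independent.

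The half-site AGGTCA lay in 4 of the 22 HIVEP windows, or 18.2% (95% interval 7.31 to 38.5%), against 18.5% of all peaks and 24.0% of the shifted windows. Of these, 3 were at HIVEP3 and 1 at HIVEP1. In the shifted windows of the same 22 peaks the half-site lay in 5, so it was no more frequent around the apex. Of the 15 unlabelled HIVEP3 peaks, 2 held 2 half-sites, or 13.3%, against 3.18% of all unlabelled peaks, and these were the peaks of height 51 and 50. That share rests on 2 peaks and has no interval. At least 1 half-site lay in 3 of the 15, against 23.4% of all unlabelled peaks. In the peak of height 51 the half-sites had the same orientation with 99 bases between them. In the peak of height 50 their orientations were opposite. The peak of height 44 held none. Direct repeats of AGGTCA with a spacer of 1, 2 or 5 bases, the arrangements best known for retinoid receptors, were found in 0 of the 22 windows (upper limit of the interval 14.9%) and in 0.0519%, 0.00649% and 0.0324% of all peaks. A direct repeat also counts as a half-site.

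The ETS core GGAAGT lay in 7 of 22 windows, or 31.8% (16.4 to 52.7%), against 37.3% of all peaks. At HIVEP3 it was in 5 of the 15 unlabelled peaks. The RUNX core TGTGGT lay in 8, or 36.4% (19.7 to 57.0%), against 24.4% of all peaks and 35.1% of unlabelled ones. AP-1 sites, TGANTCA, lay in 3, or 13.6% (4.75 to 33.3%), against 15.6% of all peaks, and all 3 were at HIVEP3. C/EBP sites, TTGCNNAA, lay in 3 as well, against 13.6% of all peaks. In the shifted windows of the same 22 peaks, ETS lay in 7, C/EBP in 5, RUNX in 3 and AP-1 in 1. At these peaks ETS was thus no more frequent around the apex than 2 kb away, and C/EBP was less frequent. For each of these motifs the share in all peaks lay inside the interval of the HIVEP share. Most HIVEP peaks, 18 of 22, carried no label. Among all unlabelled peaks the share was 42.1% for ETS, 23.9% for AP-1, 18.6% for C/EBP and 23.4% for the half-site. These were higher than the HIVEP shares but also inside their intervals. A match is a run of letters and not a measured site of binding.

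The kB site that HIVEP proteins themselves recognise, searched as GGG, any 2 bases and TTTCC, lay in 2 of 22 windows, or 9.09% (2.53 to 27.8%), against 2.43% of all peaks. Both were at HIVEP3. One is in the highest peak, printed above, and the other in the exon 4 peak of height 17. Over the list, 2.51% of unlabelled peaks held the site, and in the shifted windows 1.22% of all peaks and 0 HIVEP peaks did. The HIVEP share was 13.6% within 250 bases of the apex and 18.2% within 150 bases of the peak centre, so it depends on the window. No share of all peaks is given for these other windows. The count is too small for more than this description.

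**Figure D4:**
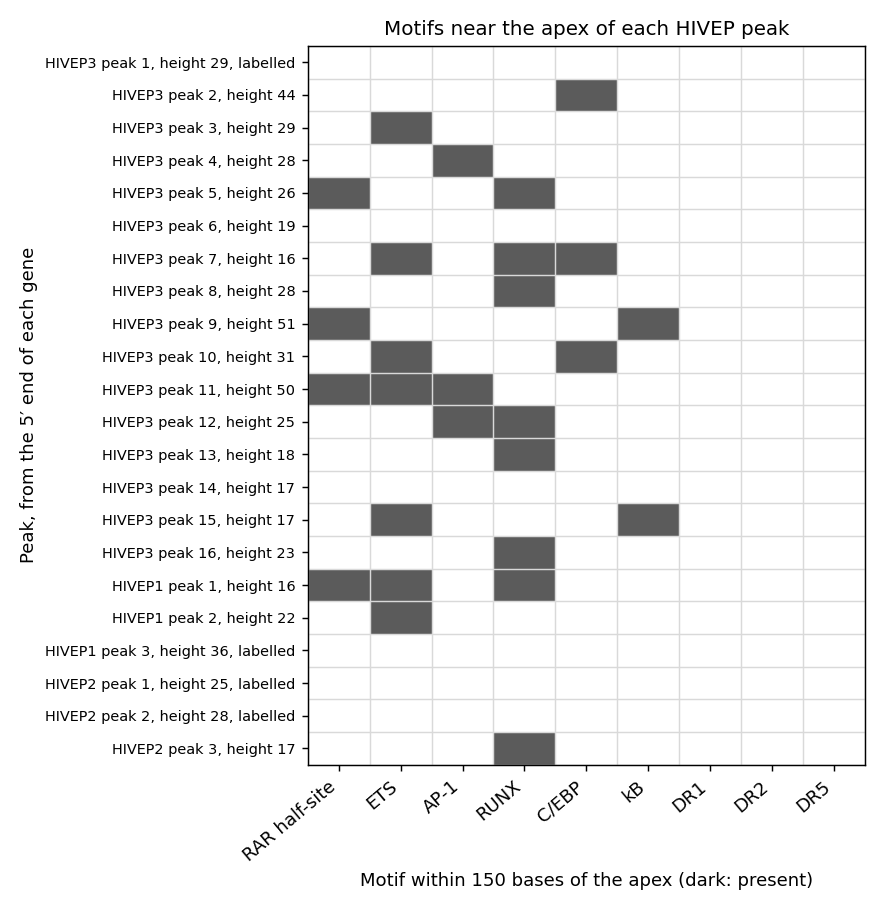
Presence (dark) of each motif (columns) within 150 bases of the apex of each HIVEP peak (rows, in order from the 5′ end of each gene, with the peak height). The rows of the 4 labelled peaks and the columns of the direct repeats are empty, and the HIVEP3 rows hold different motifs from peak to peak.

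Genes of NF-kB subunits and inhibitors, TRAF adaptors and SMAD proteins, together with JUN, RUNX2 and WWP1, were counted from lists of 20 genes. Of these, 10 carried a promoter label, against 30.0% of all protein-coding genes. Among the NF-kB subunits, NFKB2, RELA and RELB carried a label, with heights of 31, 26 and 35, and NFKB1 and REL did not. Of the NF-kB inhibitors, NFKBIA reached 47 and NFKBIE 35, and NFKBIB had no label. Among TRAF adaptors only TRAF2, the HIVEP3 partner, had a label, with a low height of 18. SMAD2 and SMAD3 had one, of 28 and 29, and SMAD1, SMAD4 and SMAD5 had none. JUN (29) and RUNX2 (19) had one and the ubiquitin ligase gene WWP1 did not. SMAD3, with 8 apexes in 131.4 kb, held the most of these genes. The lists were written with results of these data known, and the counts describe the list of peaks only.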

How the data were processed

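Before they deposited the list, the authors used Trimmomatic on the reads, Bowtie2 for alignment to hg19, and filters for PCR duplicates and blacklisted regions. SEACR called peaks over the matching control, and they kept those reproducible over 2 replicates (IDR below 0.05). In the deposited list, each peak has a total signal and a score that is its largest signal (height), whole numbers with no stated normalization. Whether they stem from 1 replicate, a mean or pooled reads is not given in the sources used here. Their scale was read from the values, since total signal never exceeded height times width. Widths were deposited in bp. Labels came from the authors, where an apex overlapped a promoter of the UCSC known genes.

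All 22 HIVEP peaks had a complete apex interval. Gene models were from GENCODE release 44 on GRCh37, which shares the chromosomes of hg19, and all peaks ended within them. Sequence came from GRCh37, and RefSeq promoter windows (GRCh38.p14) were matched to it by identity. For 2 of the 3 genes a window was there.

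Genes named were the HIVEP genes, genes at their peaks, the 10 nearest HIVEP3 in length, the 5 nearest in density among genes of 300 kb or more, and lists of NF-kB, TRAF, SMAD and other partner genes. Members, lists and motifs were chosen with earlier results of these data known. No test was run, since the list has 1 value per peak. Alternatives were stricter peaks, merging, other distances, gene spans, signal measures and motif windows. Counting and motif scripts were tested on simulated data. Python 3.11.15, numpy 2.4.6, pandas 2.3.3, scipy 1.17.1 and matplotlib 3.10.9 were used.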

Additional observations from a re-analysis of the deposited data

How the results depend on the processing

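The list holds 1 set of values, so no replicate could be left out. No paired analysis was possible because no value is given per replicate. Of 18 alternatives for the numbers of peaks, 15 stayed within 1.5 times. Restricted to the higher part of the list, from its median height upward, there were 10 at HIVEP3 and 1 at HIVEP1, and from the median width upward there were 8 at HIVEP3. HIVEP3 kept the largest number under each alternative run for it. Per 100 kb, peaks at or above the median height gave 1.70 at HIVEP3, 0.97 at HIVEP2 and 0.64 at HIVEP1. Merging neighbours under 1 kb apart gave 0.97 at HIVEP2, against 1.46 in the main count. In place of the median height, the mean height was 28.2 at HIVEP3, 24.7 at HIVEP1 and 23.3 at HIVEP2, and the median signal per base, another scale, was 8.18, 8.67 and 9.36, in which HIVEP3 came last. Of 27 alternatives for motif shares, 26 stayed inside the interval, and the C/EBP share around the peak centre was 4.55%. The kB share, 9.09% around the apex, was 18.2% around the peak centre and 13.6% within 250 bases of the apex. No share of all peaks is given for these other windows. Stricter thresholds shorten the list by construction, and the cause of the other changes was not tested. Peaks below the threshold of the caller were not in the list, so an empty stretch is one without a called peak.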
